A study of Mus musculus with 20 samples.

Results

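The liver-enriched genes are the 478 gene symbols, of 54778 in the deposited tables, that stood far higher in liver than in kidney of vehicle-treated mice. They were selected on 2 measured values, a mean CPM (counts scaled to a common library size) of at least 5 in the 4 vehicle livers and a level at least 10 times the mean of the 4 vehicle kidneys. These vehicle levels are therefore a description of the set and no result. Of 26893 symbols with a read in any liver library, 8644 reached the level limit, and 478 met both limits. Among the members 424 had a protein-coding transcript, 38 had no read in any vehicle kidney, and 271 stood at least 100 times above kidney.

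Poly(A) RNA of liver and kidney was sequenced from adult male DBA/2J mice given JQ1 at 50 mg/kg intraperitoneally every day for 3 weeks, or vehicle on that schedule. JQ1 displaces BET bromodomain proteins from acetylated chromatin, and the organs were profiled to see whether a drug aimed at the testis protein BRDT left traces elsewhere. Liver had 3 libraries from JQ1 treatment (end of dosing, 10 weeks of age), 3 from JQ1 recovery (6 weeks after the last dose, 16 weeks of age), 3 from vehicle treatment and 1 from vehicle recovery. The 4 vehicle livers formed a single control group, so 3 of the 4 controls were younger than the recovery mice. The labels give no further detail on which animals the libraries came from, and p-values measure the spread between libraries. Bulk RNA cannot tell fewer cells of a type from less RNA per cell.

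Hepatocytes, the parenchymal cells of the liver, make most plasma proteins, package lipids into lipoproteins, convert ammonia to urea, synthesise bile acids and oxidise or conjugate foreign compounds. Genes for these tasks are among the most transcribed in the body and are controlled by a small circle of factors such as HNF1, HNF4A and CEBPA. In male mice the major urinary proteins (Mup genes), which carry pheromones into urine, are driven by pulses of growth hormone. The members covered these tasks. Gene lists placed 37 in plasma carriers and protease inhibitors, 25 in cytochrome P450 families 1 to 4, 25 in conjugation, 23 in coagulation, 21 in complement, 20 in urea and amino acid metabolism, and 16 each in bile acid handling, Mup genes and male-biased genes, while 202 were in no list. Of 12 hepatocyte markers 10 were members, and 3 of 12 Kupffer cell, 3 of 13 sinusoidal endothelial and 4 of 13 stellate cell markers also were.

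The level of the members covered a wide range. Their median was 78.9 CPM in vehicle liver, 213 members stood at 100 CPM or more and 54 at 1000 or more, and the 10 most counted members took 50.4% of all member reads. The 15 members with the highest mean TPM, a length-corrected level, were Mup-ps17, Mup9, Mup14, Mup2, Mup7, Mup1, Mup19, Alb (albumin), Ttr (transthyretin), Apoa2, Apoc1, Fabp1 (fatty acid binding), Gstp1 (glutathione conjugation), Ahsg (fetuin-A) and Snord118. Alb was at 10611 TPM, Apoa2 at 10538 TPM and Ttr at 4956 TPM. Mup-ps17 and Snord118 stood at 5277 and 91.9 CPM, so they ranked far lower by reads than by TPM. Mup genes are near-identical copies, as are the Serpina1 and Saa genes, so how their reads were divided between copies is uncertain. The members just inside the level limit were Gm35986 (5.05 CPM), C730036E19Rik (5.07) and Cnmd (5.17), and the genes just outside were Rgs16 (4.99), Mreg (4.89) and Bmp5 (4.85). Just inside the ratio limit were Kcnn2 and Ccdc162 (10.01 times each) and Phlda1 (10.2 times), with Msr1 (9.97 times), Hpd (9.81) and Cyp2d22 (9.78) just outside.

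Of the 3 recovery libraries, 2 held a large share of kidney RNA. The estimated share of kidney RNA, from genes at least 50 times higher in kidney, was 30.9% in recovery replicate 2 and 12.7% in replicate 3. It was 0.387% in replicate 1 and between 0.274% and 0.296% in the vehicle livers. These shares are a description, since low levels in the vehicle livers helped to choose the kidney genes. Kap, an androgen-regulated transcript of the proximal tubule, was at 20.4, 3541 and 2138 CPM in recovery replicates 1 to 3 and at most 3.02 CPM in a vehicle liver. The summed level of 20 kidney markers, none of them a member, was 28.0, 6851 and 3183 CPM in the recovery replicates and 2.23 to 6.49 CPM in the vehicle livers, where 4 of the 20 were at 0. Members took 38.4%, 25.3% and 36.4% of the reads in recovery replicates 1 to 3, 36.3% to 38.0% in the treatment livers and 37.3% to 41.2% in the vehicle livers. Recovery replicate 2 was the lowest of all 10. The means, 33.4% ± 7.05 (SD, n = 3) and 39.5% ± 1.65 (SD, n = 4) are a description, since the vehicle levels chose the members. Kidney RNA added at most 4.48% of any member's reads by this estimate, members having been chosen to be scarce in kidney.

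**Figure D1:**
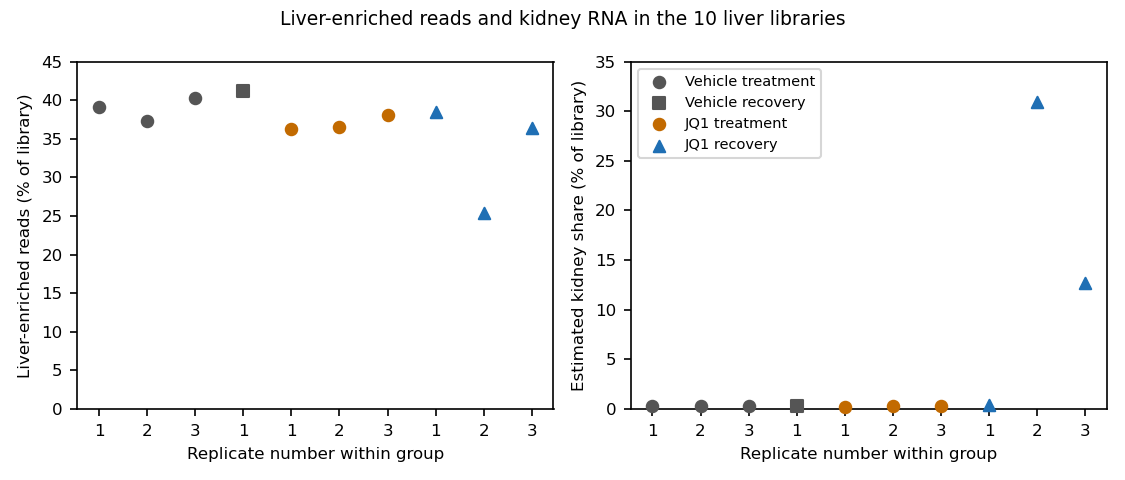
Percent of reads in the 478 liver-enriched genes (left) and estimated percent of kidney RNA (right) in each of the 10 liver libraries, one point per library, by group and replicate number, with both axes from 0. Recovery replicates 2 and 3 stand apart on the right at 30.9% and 12.7%, and recovery replicate 2 is the lowest on the left at 25.3%.

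Libraries can be scaled over all genes or over the members alone. Under the first scaling (TMM, which takes most genes as unchanged) the median log2 fold change of the members, JQ1 recovery against vehicle, was -0.42 and 438 of 478 were below 0, against a median of 0.02 over all 14549 genes tested. Because the recovery libraries differed in kidney share, members were scaled to their own total, and from here a level is given as member-scaled CPM, CPM computed on the reads of the members alone, with TMM factors over the members. On this scale the members had a median of -0.01, with 233 above and 245 below 0, and the median over all genes tested was 0.52. Directions given for members are relative to the members as a whole. A fall or rise shared by all of them would not show on this scale.

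**Figure D2:**
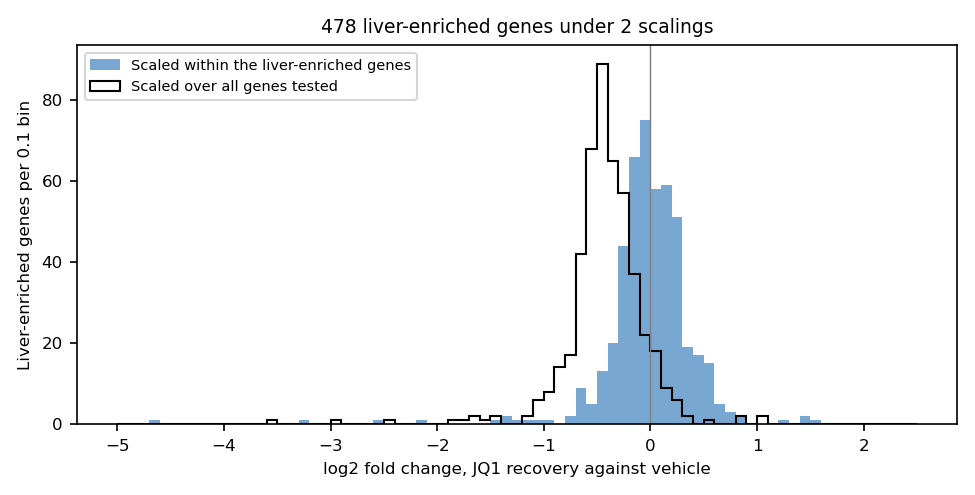
Number of liver-enriched genes per 0.1 bin of log2 fold change, JQ1 recovery against vehicle, with libraries scaled within the 478 genes (filled) or over all genes tested (outline). The filled distribution is centred at -0.01 and the outline at -0.42.

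The first question was whether any liver-enriched gene still differed from vehicle 6 weeks after the last dose. The 4 vehicle livers that served as control also chose the members. Members near the limits may have been picked for high vehicle values, so falls from vehicle among them are a description. In edgeR's quasi-likelihood test with Benjamini-Hochberg adjustment over all 14549 genes, 0 of 478 members were called at an adjusted p below 0.05, and 4 of all genes were (0.0275%). DESeq2 called 22 members, 10 higher and 12 lower, and limma-voom 0. The share of all genes called is given for the main edgeR fit only, so member counts from other fits lack that background. All 478 members passed the filter on low counts. At an unadjusted p below 0.05 there were 58 members, 30 above vehicle and 28 below, which is 12.1% of the members beside 40.4% of all genes tested. The median of all genes stood at 0.52 on this scale and the kidney share at up to 30.9% in the recovery livers, and the part of kidney RNA in the share over all genes was not tested. The lowest adjusted p of a member was 0.0557, shared by 7 members (Serpina12, Selenbp2, Mup18, Aox1, Aox3, Serpina3m and ENSMUSG00000120200). The size of a member's adjusted p, and this tie, depend also on the p-values of the genes outside the members. A value near the threshold is therefore not read as evidence for a member. With recovery replicate 1, the library nearest vehicle in kidney share, as the only recovery library, or with the kidney share as a covariate, 1 member was called each time, Aox3. Leaving out a single recovery library changed the count, to 34 higher and 17 lower without replicate 1, 1 higher (Aox3) without replicate 2, and 2 higher and 1 lower without replicate 3.

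The estimates were narrow for most members. The median standard error of a log2 fold change was 0.18, and 422 members lay within 0.5 of 0. The 95% interval lay inside ±1, a doubling or halving, for 411 members (86.0%) and inside ±0.5 for 152. Precision followed level. The median standard error was 0.27 for the 94 members at 5 to 20 CPM, 0.20 for the 171 at 20 to 100 CPM, 0.16 for the 159 at 100 to 1000 CPM and 0.15 for the 54 at 1000 CPM or more. Of these last 54, 50 had an interval inside ±1 and 28 inside ±0.5. Only 14 of 478 estimates were beyond ±1, and 8 of those belonged to members at 5 to 20 CPM.

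Among the most abundant hepatocyte products several had estimates near 0, while Mup copies, Alb and Apoe lay farther from vehicle. Trf, the iron carrier transferrin, was at 13618, 13543 and 14364 member-scaled CPM in the recovery livers and at 13402, 13690, 13910 and 13707 in the vehicle livers, with a log2 fold change of 0.02 ± 0.11 (SE, 95% interval -0.22 to 0.26). Apoa2, of high-density lipoprotein, was at -0.01 ± 0.12, Apoc1, an inhibitor of lipoprotein clearance, at 0.04 ± 0.13, and Fabp1, which binds fatty acids in the cytosol, at 0.03 ± 0.12. Alb was at 86511, 72174 and 89641 in recovery and 87979 to 109996 in vehicle, so that the groups overlapped, with a log2 fold change of -0.28 ± 0.12 (95% interval -0.54 to -0.01, adjusted p = 0.11). Acaa2 of fatty acid oxidation (0.05 ± 0.14), Igf1, the growth factor made under growth hormone (0.03 ± 0.14), and Akr1c6, a hydroxysteroid dehydrogenase (0.02 ± 0.14), also had intervals inside ±0.5. Cyp3a11, the main drug-oxidising P450 of mouse liver, was at -0.03 ± 0.18.

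Mup9, second in TPM, was at 108911, 149696 and 124017 in the recovery livers and 73062 to 107917 in the vehicle livers, so that the groups did not overlap, with a log2 fold change of 0.45 ± 0.18 (95% interval 0.06 to 0.83, unadjusted p = 0.0253 and adjusted p = 0.0889 by edgeR). Its estimate was -0.02 with TMM over all genes, and its adjusted p over the alternatives ran from 0.01955 to 0.9857. The other abundant Mup copies were spread on both sides, with Mup7 at 0.44 ± 0.32, Mup19 at 0.28 ± 0.19, Mup2 at 0.14 ± 0.17, Mup-ps17 at 0.09 ± 0.18, Mup14 at -0.09 ± 0.14 and Mup1 at -0.18 ± 0.14. Of the remaining members among the 15 highest in TPM, Gstp1 was at 0.30 ± 0.17, Snord118 at 0.54 ± 0.27, Ahsg at -0.09 ± 0.13 and Ttr at -0.24 ± 0.13.

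In 32 members all 3 recovery livers lay above all 4 vehicle livers and in 27 all lay below, which is 6.69% and 5.65% of the members beside 20.4% and 0.564% of all genes tested. Those shares of all genes are on the member scale, where the median of all genes tested was 0.52. They are therefore uneven between the directions and do not show members to be rich in falls or poor in rises. None of the 59 passed the adjusted test, so the values below are a description. Serpina12 (vaspin, a serine protease inhibitor) had the lowest p. Its level was 67.9, 96.0 and 127 in the recovery livers and 38.9, 30.1, 52.9 and 38.5 in the vehicle livers, a log2 fold change of 1.27 ± 0.25 (unadjusted p = 7.93e-05 and adjusted p = 0.0557 by edgeR). Every recovery library was above every vehicle library, replicate 1 with its low kidney share among them. Over the alternatives tried its adjusted p ranged from 3.845e-05 to 0.6853, with 4 of 24 below 0.05.

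Aldehyde oxidases, molybdenum enzymes that oxidise aldehydes and drugs, lay above vehicle. Aox3 was at 372, 272 and 319.6 in the recovery livers and 194 to 224 in the vehicle livers (0.60 ± 0.17, adjusted p = 0.0557), and it was called under 7 of 25 alternatives (adjusted p 0.00672 to 0.715). Aox1 was at 138 to 168 against 80.2 to 105 (0.65 ± 0.18). The growth hormone-dependent male-biased genes Elovl3, which elongates fatty acids (0.57 ± 0.16), and Mup20, the pheromone darcin (0.64 ± 0.20), and the complement gene C6 (0.40 ± 0.15) did not overlap either. Mup18 was at 39.1, 60.1 and 88.9 against 16.5 to 29.3 (1.51 ± 0.39), and Mup17 at 19645 to 29303 against 10452 to 16880 (0.80 ± 0.27). Completing the 10 in this direction were the unnamed gene ENSMUSG00000120200 (1.48 ± 0.35) and the pseudogene Adh6-ps1 (0.63 ± 0.23).

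Below vehicle were 3 related P450 genes. Cyp2c29, which epoxidises fatty acids, was at 2714, 3165 and 2758 against 3393 to 4365 (-0.46 ± 0.14, adjusted p = 0.0574). Cyp2c38 was at 14.3 to 18.8 against 19.9 to 60.0 (-1.13 ± 0.35), and Cyp2c39 at 5.65 to 11.96 against 14.7 to 36.6 (-1.23 ± 0.37), where 1 vehicle library at 36.6 stood far above the other 3. Serpina3m, a serpin of the acute phase family, was at 83.9 to 103 against 129.9 to 160.5 (-0.62 ± 0.18, adjusted p = 0.0557). Slc10a1, the bile acid importer NTCP (-0.54 ± 0.19), Slc25a47, a mitochondrial carrier of liver (-0.66 ± 0.21), Serpina6, which carries corticosteroids in blood (-0.44 ± 0.17), Apoe (-0.36 ± 0.15), Hrg, a histidine-rich plasma protein (-0.32 ± 0.15), and Serpina1e (-0.66 ± 0.31) made up the rest. For Apoe and Serpina1e the lowest value was recovery replicate 2, at 13611 and 10.7, the library with most kidney RNA, and the part of that RNA in the result was not tested.

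**Figure D3:**
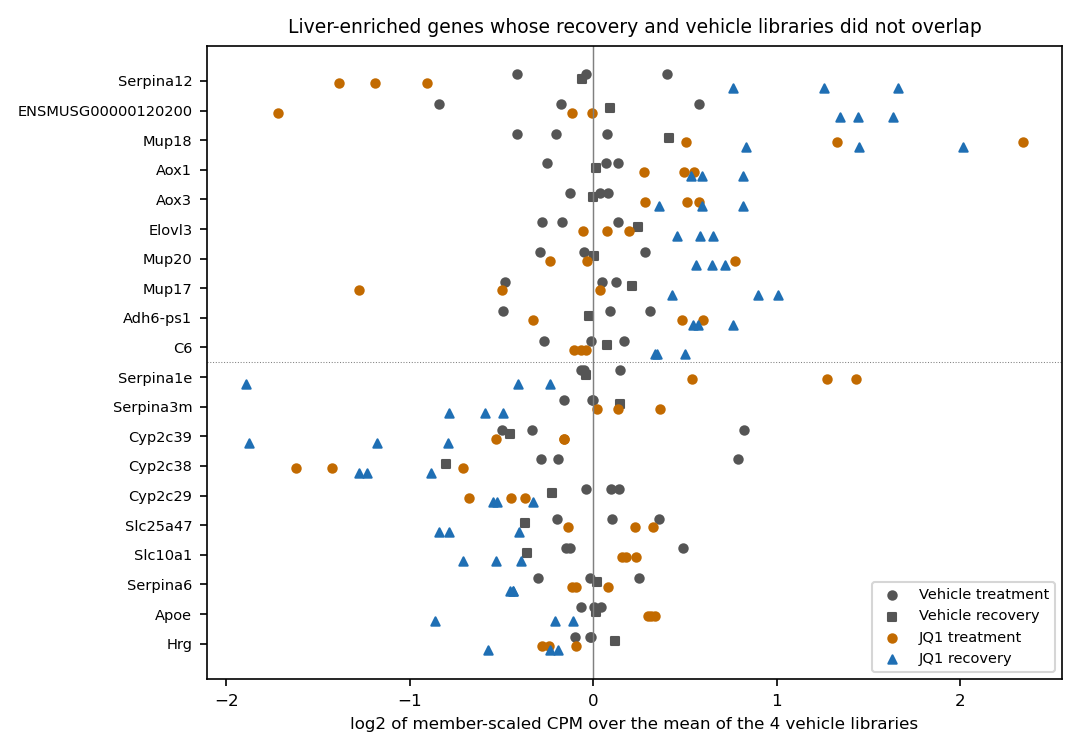
Log2 of member-scaled CPM over the vehicle mean in every liver library, for the 10 genes above and the 10 below the dotted line with the lowest p among those whose 3 recovery (triangles) and 4 vehicle (grey) libraries did not overlap. Treatment livers are orange. Serpina12 lies on opposite sides of vehicle at both JQ1 times, and for Aox1 and Aox3 both JQ1 groups lie to the right.

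By function, no list had a called member. Counts at an unadjusted p below 0.05, given here and for the lists below, stand beside 40.4% of all genes tested and 12.1% of the members. They are a description and not a result about a list. Among 16 Mup genes 11 lay above vehicle and 5 below, with a median of 0.35 and a range of -0.80 (Mup8) to 1.51 (Mup18), and of these 6 above and 1 below passed 0.05 before adjustment. The list median was 0.19, 0.41 and 0.44 in the 3 recovery libraries and between -0.16 and 0.10 in the vehicle libraries. Male-biased genes, 5 of which are Mup genes, had a median of 0.29 with 13 of 16 above vehicle. Both medians changed sign under scaling over all genes, where the medians were -0.06 and -0.10. Selenbp2, a male-biased gene outside the rule for named genes and singled out after its value was seen, was at 3165, 2243 and 4122 against 1158 to 2255 (0.89 ± 0.21).

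Plasma carriers and inhibitors had a median of -0.16, with 29 of 37 below vehicle and 1 above and 8 below at an unadjusted p below 0.05. Acute phase genes had a median of -0.28 and a range of -4.68 to 0.19. Of these, 19 of 22 lay below vehicle, 7 of them at an unadjusted p below 0.05. The vehicle livers varied widely in the inducible members of this list. Saa1, an inducible serum amyloid, was at 977, 122, 3875 and 1644 in the vehicle livers and at 287, 123 and 117 in the recovery livers (-3.23 ± 1.05, adjusted p = 0.0764). The treatment livers were at 178 to 195, and vehicle treatment replicate 2 was as low as these. Without vehicle treatment replicate 3 the estimate was -2.38. The fibrinogen chains Fgb (-0.19 ± 0.17) and Fgg (-0.21 ± 0.15) were nearer to vehicle.

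Iron and copper genes had a median of -0.22, with 8 of 9 below vehicle and 1 of these at an unadjusted p below 0.05. For the other lists medians were -0.08 for coagulation (23 members), 0.13 for complement (21), -0.07 for lipoproteins (19), -0.03 for bile acids (16), -0.03 for P450 genes (25), 0.12 for conjugation (25), -0.04 for urea and amino acids (20), 0.02 for hepatokines (20), and -0.08 for transporters (10). P450 genes ranged from -2.56 to 0.40 around their median, with 1 above and 4 below at an unadjusted p below 0.05. All 20 genes of urea and amino acid metabolism and 24 of 25 conjugation genes had an interval inside ±1. Gnmt, which methylates glycine, was at -0.31 ± 0.15 and Bhmt, which remethylates homocysteine, at 0.25 ± 0.15. Slco1b2, an importer of bile acids and drugs, was at 0.32 ± 0.15, Scd1, a fatty acid desaturase, at -0.67 ± 0.26, and the hepcidin Hamp2 at -0.68 ± 0.38. Small lists were those of glucose (7 members, 0.15, with Tat at 0.20 ± 0.18 and Gckr at 0.15 ± 0.18), lipid synthesis (7, 0.07), fatty acid oxidation (6, -0.02) and transcription factors (10, 0.14, with Creb3l3 at 0.31 ± 0.15 and Nr0b2 at 0.11 ± 0.43). Fatty acid oxidation genes ranged from -2.56 to 0.31. Genes of the lobule's central (10) and portal (17) zones had medians of 0.01 and 0.02.

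Markers of the other liver cells among the members were below or near vehicle without a call. Cd5l and Vsig4 of Kupffer cells were at -0.30 ± 0.22 and -0.14 ± 0.24. Clec4g and Dnase1l3 of sinusoidal endothelium were at -0.32 ± 0.25 and -0.09 ± 0.18, while Oit3 lay above vehicle at 0.18. Colec11 and Colec10 of stellate cells were at -0.26 ± 0.19 and -0.04 ± 0.25, and the highest of the 4 stellate members at 0.05. The summed level of the 10 bile duct markers, 1 of them a member, was 70.1, 171 and 101 CPM of the whole library in the recovery livers and 46.7 to 70.7 CPM in the vehicle livers. Several of these markers are also made in kidney tubules. The part of kidney RNA in this sum was not tested, and the member of the list, Tm4sf4, was at -0.19 ± 0.20.

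**Figure D4:**
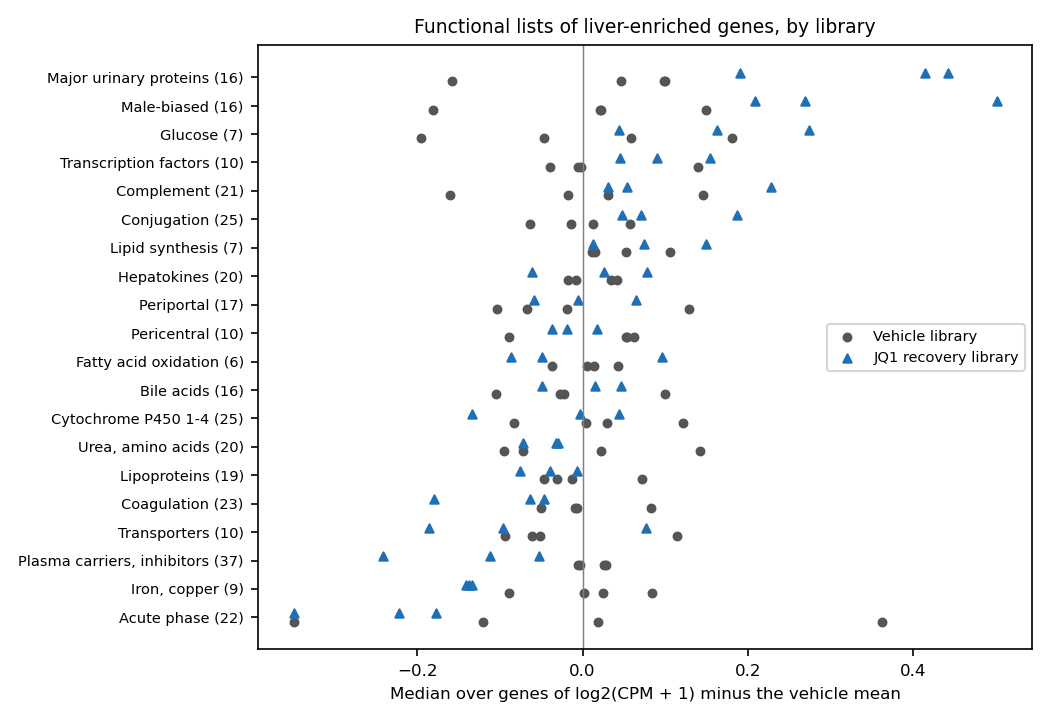
Median over the genes of each functional list of log2(member-scaled CPM + 1) minus the vehicle mean, for each vehicle (circles) and recovery (triangles) liver library, with the number of genes in brackets. Recovery libraries lie apart from vehicle to the right for Mup and male-biased genes (0.19 to 0.44 and 0.21 to 0.50) and to the left for plasma carriers and for iron and copper genes, while most other lists overlap.

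The second comparison set JQ1 treatment against JQ1 recovery. Its contrast used no library that chose the members, but the vehicle livers entered the fit behind its standard errors and p-values. The JQ1 groups also differed in age. Here 35 members were called by edgeR, 10 higher and 25 lower at treatment, which is 2.09% and 5.23% of the members beside 0.103% and 1.07% of all genes tested. With scaling over all genes the split was 21 higher and 7 lower, of which 14 were among the 35. The median of all genes tested was -0.44 on the member scale, so their shares higher and lower are uneven. Shares of all genes called are given for the main fit only, so member counts from other fits lack that background. The number called moved with single libraries. Without treatment replicate 1, 2 or 3 the members called numbered 2, 10 and 14, and 114, 54 and 23 without recovery replicate 1, 2 or 3. With recovery replicate 1 as the only recovery library 35 members were called, 24 of them among the first 35, and with the kidney share as a covariate 42, of which 28 were. Of the 35, 16 kept their call in at least 4 of these 6 fits, and Serpina12 alone kept it in all 6. Other markers also stood apart between the JQ1 times. The 11 lymphocyte markers, none a member, summed to 2.37 to 3.58 CPM in the treatment livers, 8.65 to 15.3 CPM after recovery and 12.9 to 35.2 CPM in the vehicle livers, and the 20 kidney markers to 2.25 to 2.83 CPM against 28.0 to 6851 CPM. Their part in the result was not tested.

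Genes higher at treatment were plasma proteins. Of 37 plasma carriers and inhibitors 8 rose relative to recovery and 1 fell (list median 0.30, all members -0.01). Trf was at 24830, 23730 and 24701 in the treatment livers and at 13543 to 14364 after recovery, a log2 difference of 0.82 ± 0.12 (edgeR adjusted p = 0.0037). The vehicle livers lay with recovery, at 13402 to 13910. Ttr, the carrier of thyroxine and retinol-binding protein, was at 37142, 35698 and 38069 against 17584 to 23738 (0.83 ± 0.14, adjusted p = 0.0081). Alb was at 123486 to 141440 against 72174 to 89641 (0.66 ± 0.13, adjusted p = 0.0234), and lost its call in 3 of the 6 fits without 1 library (adjusted p over all alternatives 0.00235 to 0.1765). Of the antitrypsin copies, Serpina1c was not called (0.54 ± 0.18, edgeR adjusted p = 0.1). The copies Serpina1a (0.97 ± 0.17), Serpina1b (0.79 ± 0.15), Serpina1d (1.08 ± 0.17) and Serpina1e (1.79 ± 0.33) were higher too. So were Serpina3m (0.80 ± 0.19), the complement component C3 (0.79 ± 0.14) and the kininogen Kng1 (0.66 ± 0.14). Recovery against vehicle, their values ran from -0.66 to 0.02, with intervals inside ±1 for 9 of the 10.

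Serpina12 was lower at treatment, at 17.6, 15.3 and 21.4 against 67.9, 96.0 and 127 after recovery (-2.42 ± 0.28, adjusted p = 0.000697). The vehicle livers, at 30.1 to 52.9, lay between both JQ1 groups without overlapping either. The vehicle liver of the recovery age was at 38.5, inside the range of the younger vehicle livers. Without treatment replicate 1 its adjusted p was 0.02994, the highest over 21 alternatives, which reach down to 1.355e-12.

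Mup genes were lower at treatment in 5 of 16 cases with none higher (list median -0.81). Mup1 was at 12305, 15496 and 16195 against 24845 to 29176 (-0.86 ± 0.15, adjusted p = 0.00963), and Mup21 at 102, 141 and 198 against 459 to 480.0 (-1.67 ± 0.24, adjusted p = 0.00317). Mup9 (-0.93 ± 0.20), Mup11 (-1.24 ± 0.21) and Mup16 (-3.35 ± 0.59) were also called, and kept their call in 2, 4 and 1 of the 6 fits without 1 library. Mup16 was at 234 in the vehicle liver of the recovery age and 87.7 to 147 in the younger vehicle livers. Of male-biased genes 4 were lower and 1 higher, the lower ones being Mup1, Mup21, Hsd3b5, a steroid-metabolising dehydrogenase (-1.46 ± 0.23), and Ugt2b1, a glucuronosyltransferase (-0.85 ± 0.17), and the higher one Serpina1e.

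Regulators and enzymes lower at treatment were few. Nr1i3, the xenobiotic receptor CAR, was at 36.7, 42.6 and 54.5 against 98.0 to 111 (-1.22 ± 0.21, adjusted p = 0.00998), with vehicle livers at 77.3 to 99.9. Cyp2c37, a P450 gene, was at 70.7 to 101 against 177 to 197 (-1.14 ± 0.22), and was the only called member of 25 P450 genes. Amy1, an amylase, was at 123, 165 and 183 against 351 to 439 (-1.37 ± 0.19, adjusted p = 0.00211), with vehicle livers at 374 to 419. Lect2, a secreted hepatokine (-1.12 ± 0.19), Fabp2 (-0.98 ± 0.18), the dehydrogenase genes Hsd17b6 and Sdr9c7 (-1.22 and -1.15) and the carboxylesterase Ces3b (-0.73) were also lower. Obp2a, of the lipocalin family, was at 4.54, 5.85 and 9.05 against 49.7, 65.3 and 176 (-3.91 ± 0.62, adjusted p = 0.0204), and it lost its call in 4 of the 6 fits without 1 library. Unnamed genes were among the largest differences, Gm13775 at -2.19 ± 0.31 and Gm3787 at -1.99 ± 0.32.

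These 25 genes had a median of -1.24 between the JQ1 times and of 0.28 for recovery against vehicle, where 18 had an interval inside ±1. Age was checked only as far as a single vehicle liver of 16 weeks allows. Among the 10 genes higher at treatment it lay below all 3 younger vehicle livers, the side of recovery, for 2 (Alb and Ttr) and above them for 5, and among the 25 lower ones it lay above for 8 and below for 4. Over all 478 members it lay above for 154 and below for 149.

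**Figure D5:**
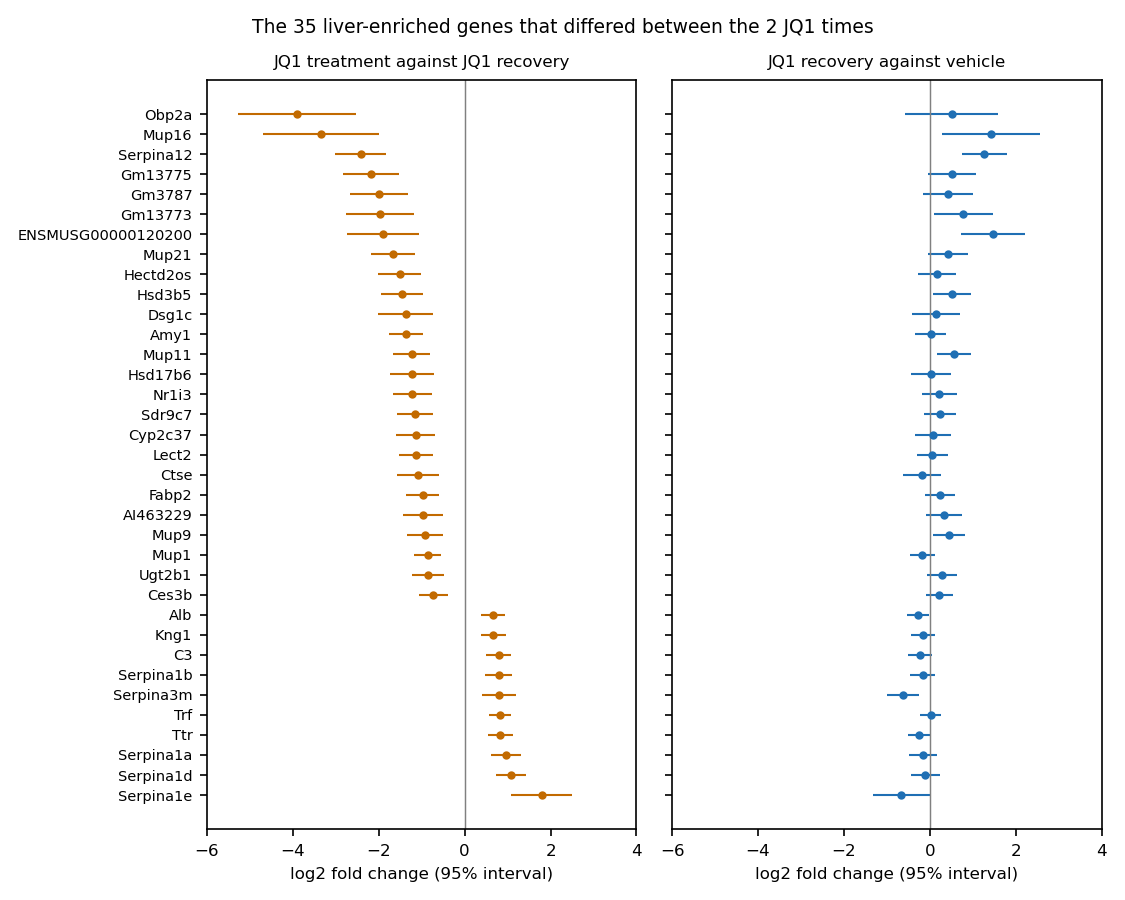
Log2 fold change with 95% interval of the 35 members called between treatment and recovery, for treatment against recovery (left) and recovery against vehicle (right), on the same axis. Both panels share the recovery libraries, so they are not independent. On the left the genes run from -3.91 (Obp2a) to 1.79 (Serpina1e). On the right they lie nearer to 0, with Serpina12 at 1.27 and ENSMUSG00000120200 farther out.

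Promoter sequence was compared only for the gene with the most stable difference and for Alb, which moved the other way between both times. RefSeq promoter windows matched 334 of 478 members (69.9%), below the 80% needed, so a comparison of motifs over the members is void. The 250 bases before the start on GRCm38.p6, read 5′ to 3′ on the strand of the gene, were chr12:104044444-104044693 (minus strand) for Serpina12 and chr5:90460620-90460869 (plus strand) for Alb. Capitals mark GTTAAT, the core of the motif bound by the liver factor HNF1, searched on both strands.
Serpina12: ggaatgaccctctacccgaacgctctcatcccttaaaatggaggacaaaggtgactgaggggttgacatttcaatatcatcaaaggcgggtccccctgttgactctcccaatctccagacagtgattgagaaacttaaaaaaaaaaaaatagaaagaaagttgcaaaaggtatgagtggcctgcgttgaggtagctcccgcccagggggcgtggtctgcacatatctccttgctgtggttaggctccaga
Alb: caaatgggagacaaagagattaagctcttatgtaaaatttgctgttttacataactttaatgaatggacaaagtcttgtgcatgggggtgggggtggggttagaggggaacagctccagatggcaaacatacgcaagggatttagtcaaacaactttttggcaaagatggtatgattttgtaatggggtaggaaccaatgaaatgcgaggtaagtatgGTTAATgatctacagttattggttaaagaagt
The Alb window held GTTAAT once, beginning 32 bases before the start, and the Serpina12 window did not hold it. It was found in 6.52% of 27025 windows of all genes. TATAAA, searched on the gene's strand, was in neither window and in 8.12% of all.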

How the data were processed

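Single-end reads were trimmed (fastp 0.20.1), and transcript abundance was estimated by Salmon 1.10.0 on a GENCODE mouse transcriptome, per the labels and the submitters' processing notes. The deposited tables give estimated counts and TPM per transcript, the latter used only for levels between genes. Estimated counts were summed per gene symbol and rounded, giving 11968500 to 17529910 reads per liver library and 3031336 to 7160811 in the members. Errors are the SD between libraries or the SE of the fit, and intervals of counting error were not computed.

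The 10 liver libraries in 3 groups (JQ1 treatment, JQ1 recovery, vehicle) were fitted with edgeR 4.0.16 in R 4.3.3 (quasi-likelihood, robust, filterByExpr with a minimum count of 10 and total of 15, 14549 genes). Library sizes were member reads times TMM factors over members. Adjustment was Benjamini-Hochberg over all genes tested, threshold 0.05. No test was run on a list. Intervals are 95% from the same fit. The scripts were tested on simulated data. DESeq2 1.42.0, limma-voom 3.58.1 and 25 alternatives in all (22 for treatment against recovery) were tried. The members and lists were chosen with earlier results of these data known. Named genes were, per direction, up to 10 called in recovery against vehicle, filled to 10 by p among those not overlapping, the 15 highest in TPM, the 2 highest in TPM per list, 3 on each side of each limit, and 5 per direction between the JQ1 times. Other genes called between the JQ1 times, and Saa1, Selenbp2, Mup8, Serpina1c and Tm4sf4 where outside this rule, were chosen after their values were seen.

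A supplementary legend lists the vehicle numbers the other way round and a recovery of 3 weeks, and the labels were followed.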

Additional observations from a re-analysis of the deposited data

Results flagged for a closer look

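Of 83 named genes and library measures examined, 3 genes had a vehicle library that stood apart. In each, 1 of the 4 vehicle livers lay so far from the other 3 that its gap to the nearest exceeded Dixon's 95% critical value. Serpina1e was highest at 43.9 member-scaled CPM in vehicle treatment replicate 1, Cyp2c39 highest at 36.6 in vehicle treatment replicate 2, and Mup19 lowest at 15122 in vehicle treatment replicate 2. About 1 in 20 such groups is singled out by chance.

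The level under JQ1 differed between both times, by the direct edgeR test of treatment against recovery, and these genes had the largest log2 differences of those called. Higher at treatment were Serpina1e (1.79), Serpina1d (1.08), Serpina1a (0.97), Ttr (0.83) and Trf (0.82). Lower were Obp2a (-3.91), Mup16 (-3.35), Serpina12 (-2.42), Gm13775 (-2.19) and Gm3787 (-1.99). Of these, Mup16 kept its call in 1 and Obp2a in 2 of the 6 fits without 1 library. Age and time after dosing cannot be told apart in these groups.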

How the results depend on the processing

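Recovery against vehicle called 0 members higher and 0 lower. The counts were 10 and 5 with no filter on low counts, 4 and 1 at a minimum of 20 CPM, 10 and 12 with DESeq2, 0 and 1 with TMM over all genes, and 1 and 0 with recovery replicate 1 alone or the kidney share as a covariate. Leaving out 1 library gave 0 to 34 higher and 0 to 17 lower. The cause was not tested. Other member limits changed the genes used for scaling and the members counted, not the genes tested. Shares of all genes called are not given for these other fits. The count with an interval inside ±1 was 273 and 230 at ratios of at least 50 and 100, where fewer genes were members. The median of all members was -0.42 with TMM over all genes, -0.044 without a TMM factor, 0.0079 against the vehicle recovery library alone, and -0.017 to 0.018 without 1 library.

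Treatment against recovery called 10 higher and 25 lower, and alternatives for it were mostly chosen after seeing the data. Shares of all genes called are not given for these alternatives. The counts were 21 and 7 with TMM over all genes, 20 and 34 with no filter, 32 and 41 with DESeq2, and 0 to 49 higher and 2 to 65 lower without 1 library. Adjusting only over genes not higher in kidney, also added after seeing the data, left both recovery counts at 0. No named gene reversed its direction where called. Replicate numbers did not pair the samples (correlations of same-numbered deviations -0.13 to 0.13). With the replicate number as a block, recovery against vehicle called 0 and 0 members and treatment against recovery 11 and 26. Intervals were widest for members at 5 to 20 CPM, where 67 of 94 lay inside ±1, and depth and spread between livers were not separated.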
